A study of Arabidopsis thaliana with 24 samples.

Results

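PRR9, PRR7, PRR5, PRR3 and TOC1 (also called PRR1) form the family of pseudo-response regulators of the Arabidopsis thaliana circadian clock. They were chosen by their gene identifiers, AT2G46790, AT5G02810, AT5G24470, AT5G60100 and AT5G61380, and make up 5 of the 33602 genes counted. With them come 33 of 120717 annotated introns and 3 of 7973 bins of annotated alternative splicing (AS). The count tables list PRR9 under the symbol TL1, PRR3 under APRR3 and TOC1 under PRR1. The members lie on TAIR10 chromosome 2 from 19232649 to 19235087 (PRR9) and on chromosome 5 from 637897 to 641977 (PRR7), 8355951 to 8358873 (PRR5), 24197998 to 24201404 (PRR3) and 24675064 to 24678550 (TOC1), and no other gene model overlaps them.

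Pseudo-response regulators carry a receiver domain that lacks the phosphate-accepting residue of true response regulators, and a CCT domain through which they bind DNA. In a day-night cycle their transcripts peak one after another, PRR9 in the morning, then PRR7, PRR5 and PRR3, and TOC1 in the evening. PRR9, PRR7, PRR5 and TOC1 repress the morning genes CCA1 and LHY, and PRR3 protects TOC1 protein from the F-box protein ZTL.

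The study sequenced polyA-selected RNA of plants from mutants in 2 subunits of Sm-like (LSM) protein rings, which act in mRNA decapping and, as part of the U6 small nuclear ribonucleoprotein, in splicing. The lsm4 mutant (lsm4-1) and its control, wild-type Col (WT Col), grew on Murashige and Skoog agarose and were taken at day 15. The lsm5 mutant (sad1) and its control, wild-type C24 (WT C24), grew on soil and were taken at day 30, before bolting. All 4 groups grew at 22 °C in continuous light, with 3 replicates a group and 2 libraries per replicate. The hour of harvest, on which the level of clock genes can depend, is not given in the sources used here, and its part in the results was not tested. Accession, medium, age and the level of root markers (given below) differ between the comparisons. They cannot be told apart from the mutation when the mutants are set against each other.

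Gene counts per replicate ranged from 9402839 (WT Col 1) to 52218346 in the lsm4 comparison and from 16997209 to 37194686 in the lsm5 comparison. On principal components of log2 CPM, the other 4 libraries of the lsm4 comparison lay away from WT Col 1 and lsm4 2 on the second component (21.7% of variance). WT C24 2 and lsm5 3 lay between the genotypes on the first component of theirs (53.3%). For part of the results, values without these pairs are given beside them. Levels are in CPM, a gene's count relative to its library's total, scaled by TMM, with mean ± SD over n = 3. In WT Col, LSM4 itself stood at 57.0 ± 17.3 CPM, and at 351 ± 98.7 CPM in lsm4. LSM5 stood at 15.8 ± 3.89 CPM in WT C24 and, in lsm5, at 12.6 ± 3.58 CPM, and the total count of a mutated gene checks neither label. The summed level of 3 leaf markers (RBCS1A, LHCB1.3, RCA) lay between 56530 and 74090 CPM in WT Col and between 23950 and 42170 CPM in lsm4. It lay between 51570 and 84120 CPM in WT C24 and between 39110 and 68540 CPM in lsm5. The sum of 3 root markers (RHD6, CASP1, IRT1) was 121.8 to 203.8 CPM in WT Col, 57.55 to 76.26 CPM in lsm4 and at most 0.461 CPM in both soil-grown groups, where RHD6 was at 0. The sum of 3 flower markers (AP3, PI, AG) was at most 3.46 CPM in every library, and AP3 was at 0 in WT Col and lsm4. Root markers were thus nearly absent from the soil-grown groups, so root content also differs between the comparisons. In samples of many tissues, fewer cells of a type and less RNA per cell cannot be told apart, and the part of these markers in the results was not tested.

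The sequences that the intron results turn on are printed first, from the TAIR10.1 assembly of the reference, whose coordinates are those of TAIR10. Capitals mark the first 6 and the last 3 bases of each intron, where the spliceosome recognises its ends. TOC1 intron I004 and PRR5 intron I001 had the highest read densities in lsm4 outside PRR9. PRR5 I003 had a higher mean density than the wild type in both mutants, with libraries that overlapped. PRR9 I007 has a near-identical copy elsewhere. TOC1 I004 is the fourth intron of TOC1 on the plus strand at chr5:24676740-24676823. PRR5 I001 and PRR5 I003 lie on the minus strand at chr5:8356297-8356380 and chr5:8357539-8357693. PRR9 I007 lies on the plus strand at chr2:19234710-19234802.
TOC1 I004: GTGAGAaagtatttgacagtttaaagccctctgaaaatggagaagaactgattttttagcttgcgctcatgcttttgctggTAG
PRR5 I001: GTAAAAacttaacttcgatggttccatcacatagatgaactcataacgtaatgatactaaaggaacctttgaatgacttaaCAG
PRR5 I003: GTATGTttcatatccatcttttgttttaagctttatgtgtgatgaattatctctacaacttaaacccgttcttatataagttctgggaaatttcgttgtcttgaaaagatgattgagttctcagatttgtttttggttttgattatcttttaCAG
PRR9 I007: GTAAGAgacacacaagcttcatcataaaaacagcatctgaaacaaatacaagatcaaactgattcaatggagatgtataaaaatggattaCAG

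Introns are numbered here as in the count tables, by ascending coordinate, so those of PRR7, PRR5 and PRR3 run from the 3-prime end of the transcript. PRR5 I001 is therefore the last of 5 introns in transcript order and PRR5 I003 the third. All 33 introns of the members began with GT and ended with AG, as did 98.7% of the 117745 introns of the tables that were read from the genome. The base before the intron was G in 23 of 33 (69.7%) and in 76.6% of all introns, and the fifth intron base was G in 20 of 33 (60.6%) and in 49.6% of all. The letters GTAAG opened 8 of 33 (24.2%) and 17.2% of all introns, on the strand of the gene. These shares are descriptions of the sequence and carry no test. Of the 33 introns, 30 interrupt the coding frame of an annotated transcript. For each of these 30, the transcript with the earliest stop would, on keeping the intron, meet its first stop codon inside it. The other transcripts of a gene were not counted, and some introns lie outside the coding region in part of them. In TOC1 I004 that stop falls after 206 of 618 residues, and in PRR5 I001 after 531 of 558.

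At the level of whole genes, PRR5 was the only member called in lsm4, where it was 1.91-fold higher. TOC1 in lsm5, at 0.661 times WT C24, did not pass the threshold (edgeR adjusted p = 0.0905). PRR9 had 7.90, 8.65 and 9.79 CPM in lsm4 and 6.68, 7.19 and 3.25 CPM in WT Col, so the groups did not overlap. Its means were 8.78 ± 0.951 and 5.70 ± 2.14 CPM, which gave a log2 change of 0.63 (SE 0.32, adjusted p = 0.194 by edgeR's quasi-likelihood test). Every lsm4 library thus lay above every WT Col library, by a margin smaller than the wild-type spread. The share of all genes whose groups did not overlap was not counted, here or below.

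PRR7, the afternoon repressor whose loss together with PRR9 lengthens the clock's period, had 45.4, 47.8 and 52.4 CPM in lsm4 and 51.9, 35.1 and 22.0 CPM in WT Col. The groups overlapped, because WT Col 1 was as high as the mutant. The means of 48.5 ± 3.57 and 36.3 ± 15.0 CPM gave a log2 change of 0.42 (SE 0.28, edgeR adjusted p = 0.324). The change ranged from 0.18 without WT Col 3 (edgeR adjusted p = 0.662) to 0.76 without WT Col 1 (edgeR adjusted p = 0.0525), and no fit that left out 1 library passed. Without both WT Col 1 and lsm4 2 it was 0.77 (edgeR adjusted p = 0.0285), in a fit that called 31.4% of all genes.

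PRR5, a repressor of CCA1, LHY and growth genes that also helps bring TOC1 into the nucleus, had 36.2, 36.3 and 36.0 CPM in lsm4 and 28.7, 15.6 and 12.5 CPM in WT Col. The mutant libraries were nearly equal and all lay above the wild type, whose highest library was WT Col 1. The level rose from 18.9 ± 8.61 to 36.2 ± 0.173 CPM, a log2 change of 0.95 (SE 0.29, edgeR adjusted p = 0.046). This call was lost when any library other than WT Col 1 was left out (edgeR adjusted p from 0.0648 to 0.152), and without WT Col 1 the change was 1.36 (edgeR adjusted p = 0.00315). Without both WT Col 1 and lsm4 2 it was also 1.36 (edgeR adjusted p = 0.000638), in a fit that called 31.4% of all genes. In the authors' deposited table of raised genes, PRR5 stands with a log2 change of 0.95 and an FDR of 0.012, and no other member is in any of their deposited tables of changed genes.

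PRR3 had 14.1, 13.8 and 13.2 CPM in lsm4 and 19.1, 12.4 and 10.6 CPM in WT Col, with means of 13.7 ± 0.454 and 14.05 ± 4.49 CPM. All lsm4 libraries lay within the range of the wild type. The log2 change was -0.02 (SE 0.25, edgeR adjusted p = 0.963), with a sign that turned when libraries were left out. TOC1, the evening repressor of CCA1 and LHY, had 45.9, 50.4 and 51.2 CPM in lsm4 and 60.3, 39.9 and 38.4 CPM in WT Col. Its means were 49.2 ± 2.88 and 46.2 ± 12.2 CPM, and the groups overlapped (log2 change 0.09, SE 0.21, edgeR adjusted p = 0.788). Thus 1 of 5 members was called in lsm4, beside 21.4% of the 20793 genes tested there. The median log2 change was 0.42 over the members and 0.02 over all genes.

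**Figure D1:**
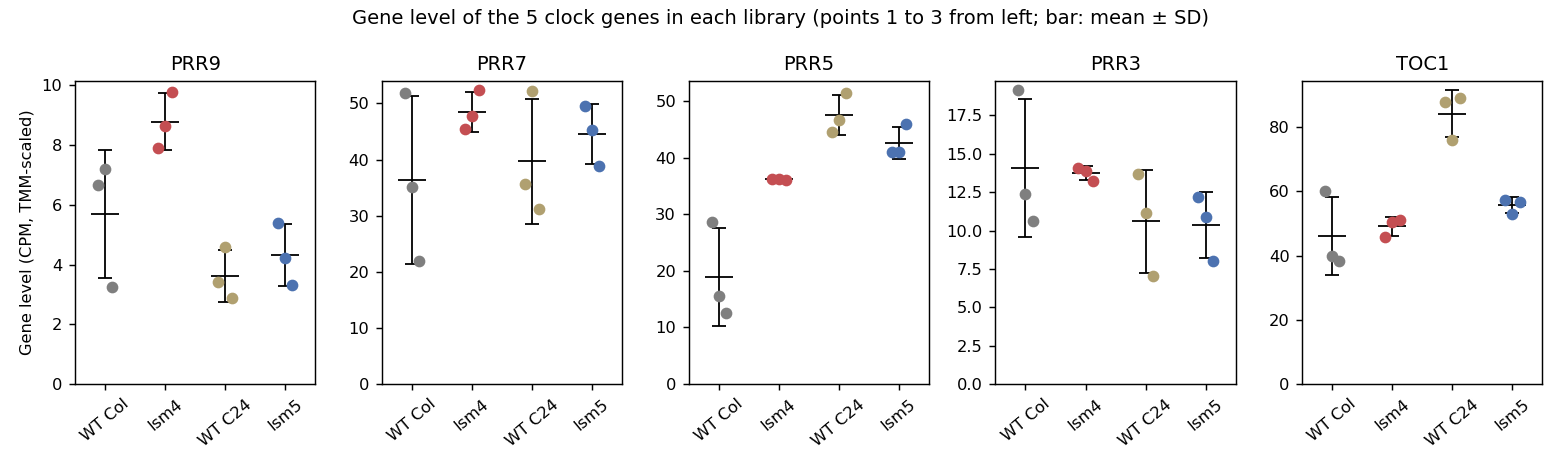
Gene level in CPM of PRR9, PRR7, PRR5, PRR3 and TOC1 in each of 3 libraries a group (points 1 to 3 from left), with mean ± SD. PRR5 lay between 36.0 and 36.3 CPM in the lsm4 libraries, above the highest WT Col library at 28.7 CPM, and TOC1 in lsm5 lay below all WT C24 libraries.

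In the lsm5 comparison, TOC1 had 57.5, 52.9 and 56.7 CPM in the mutant and 87.8, 75.9 and 89.1 CPM in WT C24. The ranges lay apart, all mutant libraries below the lowest wild-type library. Ranges also lay apart in lsm5 for RVE4, LNK3, COR28, PIF4 and APRR8, other clock genes followed below, and none of these was called. The means were 55.7 ± 2.44 and 84.3 ± 7.27 CPM, 0.661 times the wild type, and the log2 change of -0.60 (SE 0.16, lower in 3 of 3 libraries) had an unadjusted p of 0.00437 and an edgeR adjusted p of 0.0905. Of 14 alternatives 11 did not pass either (adjusted p from 0.0545 to 0.32). It passed without lsm5 3 (edgeR adjusted p = 0.0486), with DESeq2 (adjusted p = 0.0195) and without WT C24 2 and lsm5 3 (log2 change -0.68, edgeR adjusted p = 0.00115). These fits called 10.2%, 6.27% and 39.9% of all genes, beside 2.45% in the main fit.

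PRR5 had 41.0, 41.0 and 45.9 CPM in lsm5 and 44.6, 46.6 and 51.5 CPM in WT C24. The groups overlapped narrowly, and the log2 change was -0.16 (SE 0.16, edgeR adjusted p = 0.655). PRR7 had 49.5, 45.2 and 38.9 CPM in lsm5 and 35.7, 52.3 and 31.1 CPM in WT C24 (log2 change 0.17, edgeR adjusted p = 0.748). Its highest wild-type library was WT C24 2, and without it and lsm5 3 the log2 change was 0.51 (edgeR adjusted p = 0.0127). No fit that left out 1 library passed, and the change was 0.02 without WT C24 3. PRR9 had 5.40, 4.20 and 3.33 CPM in lsm5 and 3.42, 4.58 and 2.88 CPM in WT C24 (log2 change 0.24, edgeR adjusted p = 0.72), and the change was 0.62 without WT C24 2 and lsm5 3 (edgeR adjusted p = 0.0958). PRR3 had 12.2, 10.9 and 8.03 CPM in lsm5 and 13.7, 11.1 and 7.03 CPM in WT C24 (log2 change -0.03, edgeR adjusted p = 0.968). Both PRR9 and PRR3 overlapped between the groups. No member was called in lsm5 by edgeR, beside 2.45% of the 19819 genes tested, and 1 of 5 had an unadjusted p under 0.05. DESeq2 called 1, beside 6.27% of the genes it tested.

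**Figure D2:**
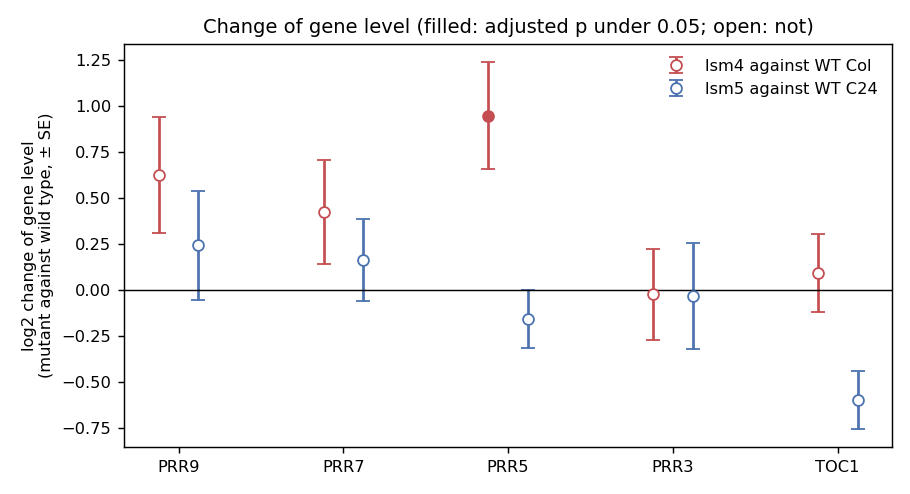
Log2 change of gene level of each mutant against its own wild type, with the standard error, for the 5 clock genes. Filled points passed an edgeR adjusted p of 0.05: PRR5 in lsm4 (0.95) did, and TOC1 in lsm5 (-0.60) did not.

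The difference between the mutants' changes was tested directly over all 12 count columns. It was 1.13 on the log2 scale for PRR5 (SE 0.35, edgeR adjusted p = 0.0574) and 0.71 for TOC1 (SE 0.26, edgeR adjusted p = 0.103), so for both the change in lsm4 was the more positive. Neither passed the threshold, though both had an unadjusted p under 0.05. For PRR9 (0.40), PRR7 (0.28) and PRR3 (0.03) the adjusted p was at least 0.626. No member was called, beside 10.5% of the 21588 genes tested, and 2 were called when WT Col 1 was left out. Without the 4 libraries that lay apart, PRR5 (1.63, edgeR adjusted p = 0.000282) and TOC1 (1.03, edgeR adjusted p = 0.00173) were called. The share of all genes called in these 2 refits was not counted. Within each comparison, leaving out the libraries that lay apart raised that share from 21.4 to 31.4% in lsm4 and from 2.45 to 39.9% in lsm5.

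Set against each other per kilobase of exon, the members had the same leader in every group. TOC1 was highest, with 17.1 ± 4.53 CPM per kilobase in WT Col, 18.2 in lsm4, 31.1 in WT C24 and 20.6 in lsm5. PRR9 was lowest, with 3.12 ± 1.17, 4.81, 1.99 and 2.36 CPM per kilobase in the same order. PRR3 was next to last throughout, at 6.32, 6.18, 4.77 and 4.66 CPM per kilobase. In the plants on agarose PRR7 (12.8 in WT Col and 17.1 in lsm4) came before PRR5 (8.38 and 16.02 CPM per kilobase), and on soil PRR5 (21.1 in WT C24 and 18.9 in lsm5) came before PRR7 (14.02 and 15.7). Neighbours in this order whose libraries overlapped were TOC1, PRR7, PRR5 and PRR3 in WT Col, TOC1, PRR7 and PRR5 in lsm4, and TOC1 and PRR5 in lsm5. In WT C24 no neighbours overlapped. Compared within each library, the order of WT Col held in all WT Col libraries, and TOC1 lay above PRR5 in every lsm5 library. In lsm4 1, PRR7 (16.04) and PRR5 (16.06 CPM per kilobase) stood in the reverse order.

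Reads of PRR9 cannot all be told from those of another locus. AT2G46670, from 19164357 to 19165233 on the same chromosome and the opposite strand, aligned over 874 bases with PRR9 at 99.5% identity, with 4 mismatches and no gap. The aligned stretch of PRR9 runs from 19234260 to 19235133 and holds intron I007. None of the other 4 members had a stretch of at least 100 bases at 95% identity elsewhere in the genome. The counts of PRR9 I007 and of the intron of AT2G46670 were equal in 11 of 12 count columns, so the reads cannot be assigned to either gene, and PRR9 levels are uncertain to that extent. With both loci summed, the log2 change was 0.69 in lsm4 (SE 0.28, edgeR adjusted p = 0.109) and 0.23 in lsm5 (edgeR adjusted p = 0.748). Any read counted at both loci enters that sum from each of them, so the sum does not remove the uncertainty.

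Introns were read as density: reads per intron base, expressed in % of the gene's count per base of its exons. They were tested with the gene's own count as offset, so that a change of the whole transcript does not move the result. Most of the members' introns held few reads: 25 of 33 in lsm4 and 31 of 33 in lsm5 fell below the count filter and have no test in the main fit. In lsm4, 25 introns had a higher share of their gene's reads than in WT Col, 6 a lower one, and 2 held no read. In lsm5, 16 were higher, 10 lower and 7 without reads. Of the higher ones, 8 in lsm4 and 7 in lsm5 held no read in the wild type. The matching shares over all introns, without the filter, were not counted. Among introns that passed the filter, the log2 change was above 0 for 7 of 8 of the members in lsm4, beside 81.8% of all. In lsm5 it was above 0 for 1 of 2, beside 68.6% of all.

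TOC1 I004 had the lowest adjusted p of the introns tested in lsm4. It held 22, 27 and 20 reads in lsm4 and 4, 9 and 0 reads in WT Col, densities of 42.5 ± 5.49% and 12.3 ± 11.03%. No mutant library overlapped the wild type. The log2 change was 1.78 (SE 0.64, edgeR adjusted p = 0.0623), and of 6 fits without a library only that without WT Col 1 passed (2.10, edgeR adjusted p = 0.0464). The change was 1.26 without WT Col 3 (edgeR adjusted p = 0.184) and 1.14 relative to the median of all introns (edgeR adjusted p = 0.306). In lsm5 it held 15, 10 and 24 reads against 9, 9 and 8 in WT C24, densities of 27.7 ± 8.90% and 13.8 ± 4.31% (log2 change 1.03, SE 0.50, edgeR adjusted p = 0.442), and the change was 0.68 without WT C24 2 and lsm5 3. The difference between the mutants was not called for any of 8 introns tested (edgeR adjusted p from 0.794 to 0.968, none at an unadjusted p under 0.05), beside 0.0145% of all 13774.

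PRR5 I001 held 11, 26 and 5 reads in lsm4 and 0, 2 and 0 in WT Col. All lsm4 libraries lay above the wild type, at a mean density of 28.7% against 2.47%, and lsm4 2 held the most. Relative to the gene's counts the summed reads were 7.13 times as frequent (95% interval 1.85 to 60.8, counting error only), and the intron fell below the count filter, so it has no test in the main fit. Without the filter, edgeR tested 31 introns of the members in lsm4, PRR5 I001 among them, and called 0. In the authors' deposited table of raised introns it is the single entry of a member, with a log2 change of 3.14 and an FDR of 0.0362. In lsm5 it held 2, 1 and 4 reads against 0, 2 and 2 in WT C24.

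PRR5 I003 held 22, 13 and 20 reads in lsm4 and 0, 1 and 6 in WT Col, densities of 21.0% and 10.6% (log2 change 1.28, SE 0.85, edgeR adjusted p = 0.303). By density WT Col 3 (29.9%) lay above all lsm4 libraries (14.1 to 25.6%). Nearly all wild-type reads of PRR5 I003 were in WT Col 3, without which the log2 change was 3.73 (edgeR adjusted p = 0.0327). Without WT Col 2 the log2 change was 0.47 (edgeR adjusted p = 0.785). In lsm5 the reads were 11, 4 and 21 against 3, 0 and 5 in WT C24, densities of 11.7% and 3.67%, below the filter for a test. The densities of single libraries overlapped there as well. TOC1 I001 held 18, 18 and 14 reads in lsm4 and 5, 3 and 4 in WT Col (log2 change 1.26, SE 0.61, edgeR adjusted p = 0.158), and the change was 0.64 without WT Col 2. It was 1.84 without WT Col 1 and lsm4 2 (edgeR adjusted p = 0.0582). TOC1 I003 held 8, 6 and 5 reads against 1, 2 and 0, a ratio of 4.07 (95% interval 1.197 to 21.5, counting error only).

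PRR7 I004, 292 bases long, had mean densities below the wild type in both mutants. It held 13, 51 and 47 reads in lsm4 and 7, 86 and 15 in WT Col, densities of 20.3% and 30.7%. In lsm5 it held 15, 20 and 7 reads and in WT C24 9, 54 and 12, densities of 9.20% and 19.5%. The groups overlapped in lsm4 and, by a small margin, did not in lsm5, and the log2 changes of -0.69 (SE 0.49, edgeR adjusted p = 0.354) and -1.14 (SE 0.50, edgeR adjusted p = 0.378) did not pass the threshold. The highest wild-type library was replicate 2 in each accession. Without WT Col 2 the log2 change in lsm4 was -0.01 (edgeR adjusted p = 0.994). In lsm5 it was -0.61 without WT C24 2 and -0.30 without WT C24 2 and lsm5 3. Without WT Col 1 and lsm4 2 it was -1.32 in lsm4 (edgeR adjusted p = 0.0679), and with samples blocked by the numeral in their descriptions -1.43 (edgeR adjusted p = 0.000685). That block takes up WT Col 1 and lsm4 2, whose numerals have no partner, so both values rest on the same libraries. PRR7 I006 (log2 change 0.66), PRR7 I001 (0.09) and PRR3 I011 (0.42) in lsm4 had edgeR adjusted p values of 0.473, 0.944 and 0.692.

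PRR9 I007, the intron shared with AT2G46670, held 18, 21 and 27 reads in lsm4 and 3, 12 and 2 in WT Col, a density of 138% against 69.97%. It lies in an exon of 1 of the 5 annotated PRR9 transcripts. The log2 change was 0.98 (SE 0.50, edgeR adjusted p = 0.187). In lsm5 it held 14, 16 and 9 reads against 1, 9 and 2, a density of 180% against 67.4%, with no test. This intron took 66 of 84 intron reads of PRR9 in lsm4 and 17 of 26 in WT Col, and the other 5 introns together held 18 and 9 reads.

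No single intron of the members was called by edgeR in lsm4, where 8 of 33 could be tested, 1 had an unadjusted p under 0.05 and DESeq2 called none. Of all 11439 introns tested there, 18% were called. The median log2 change was 0.82 over the members' tested introns and 0.65 over all. In lsm5, 2 could be tested, edgeR and DESeq2 called none, 1 had an unadjusted p under 0.05, and 0.531% of all 7151 were called.

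**Figure D3:**
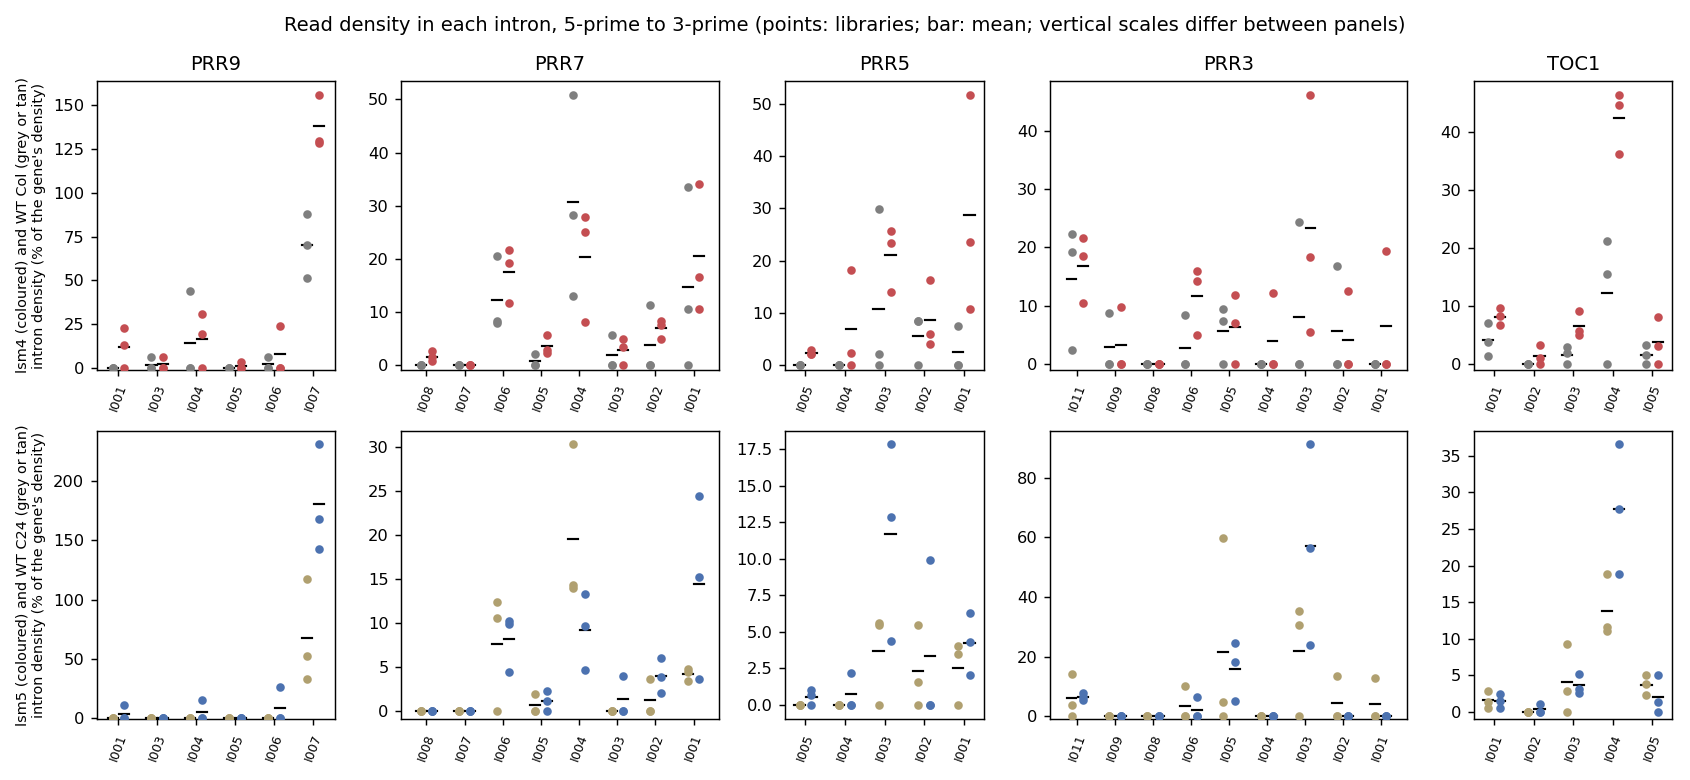
Density of reads in each of the 33 introns, in transcript order, as a percentage of the count per exon base of its gene, with lsm4 and WT Col in the upper row and lsm5 and WT C24 in the lower row (points are libraries, bars means, and vertical scales differ). TOC1 I004 and PRR5 I001 stand at means of 42.5% and 28.7% in lsm4, and PRR7 I004 has its highest point in a wild-type library in both rows.

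Because most introns were too thinly covered, the reads of all introns of a gene were also summed, a test added after the single introns had been seen. In lsm4, summed introns rose in TOC1 and PRR5. For TOC1 they made up 3.03, 2.89 and 2.64% of the gene's count in lsm4 and 1.65, 0.807 and 0.557% in WT Col, 149 and 30 reads in all. The groups did not overlap, and the log2 change was 1.62 (SE 0.38, edgeR adjusted p = 0.00512). For PRR5 the share was 3.75, 3.79 and 2.56% in lsm4 and 0.347, 0.413 and 2.40% in WT Col, 130 and 11 reads in all. Here WT Col 3 came close to the lowest mutant library, and the log2 change was 1.91 (SE 0.56, edgeR adjusted p = 0.0147). The PRR5 call was lost without WT Col 2 (log2 change 1.28, edgeR adjusted p = 0.126) and without WT Col 1 and lsm4 2 (1.57, edgeR adjusted p = 0.0591).

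The other members were not called in lsm4. PRR9 had 9.06 ± 1.01% of its count in introns against 4.46 ± 1.82% in WT Col (log2 change 0.83, edgeR adjusted p = 0.134), most of it in the shared intron. PRR3 had 5.87 ± 1.31% against 4.08 ± 1.34% (0.63, edgeR adjusted p = 0.209), and PRR7 had 4.33 ± 1.62% against 4.51 ± 2.16% (-0.16, edgeR adjusted p = 0.703). So 2 of 5 members were called in lsm4, beside 37.5% of all 9652 genes with summed introns tested. The median over all these genes was 0.81, with 91.5% above 0. Relative to that median the log2 changes of TOC1 (0.81, edgeR adjusted p = 0.233) and PRR5 (1.11, edgeR adjusted p = 0.275) no longer passed. Over all genes, intron counts came to 1.77 to 1.88% of gene counts in WT Col and 2.71 to 2.94% in lsm4.

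In lsm5, PRR5 had 1.04, 0.528 and 1.99% of its count in introns against 0.383, 0.195 and 0.746% in WT C24 (log2 change 1.44, SE 0.63, edgeR adjusted p = 0.215). The change was 2.15 without WT C24 3, 0.81 without lsm5 3 and 0.38 without WT C24 2 and lsm5 3 (edgeR adjusted p = 0.756). TOC1 had 1.33 ± 0.440% against 0.972 ± 0.353% (0.44, edgeR adjusted p = 0.544), a change of 0.09 without WT C24 2 and lsm5 3. PRR3 (0.23) and PRR7 (-0.39) had edgeR adjusted p values of 0.826 and 0.602, and PRR9, at 10.04% against 3.43%, fell below the filter. None of 4 tested members was called by edgeR and 1 had an unadjusted p under 0.05. Of all 6961 genes tested, 3.25% were called, with a median of 0.38. The difference between the mutants' changes was 1.17 for TOC1 (SE 0.56, unadjusted p 0.0462, edgeR adjusted p = 0.435) and 0.45 for PRR5 (edgeR adjusted p = 0.885), and 1.89 and 1.18 without the 4 libraries that lay apart (edgeR adjusted p = 0.105 and 0.564). No member was called, beside 0.0198% of all 10121 genes, and TOC1 alone had an unadjusted p under 0.05.

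**Figure D4:**
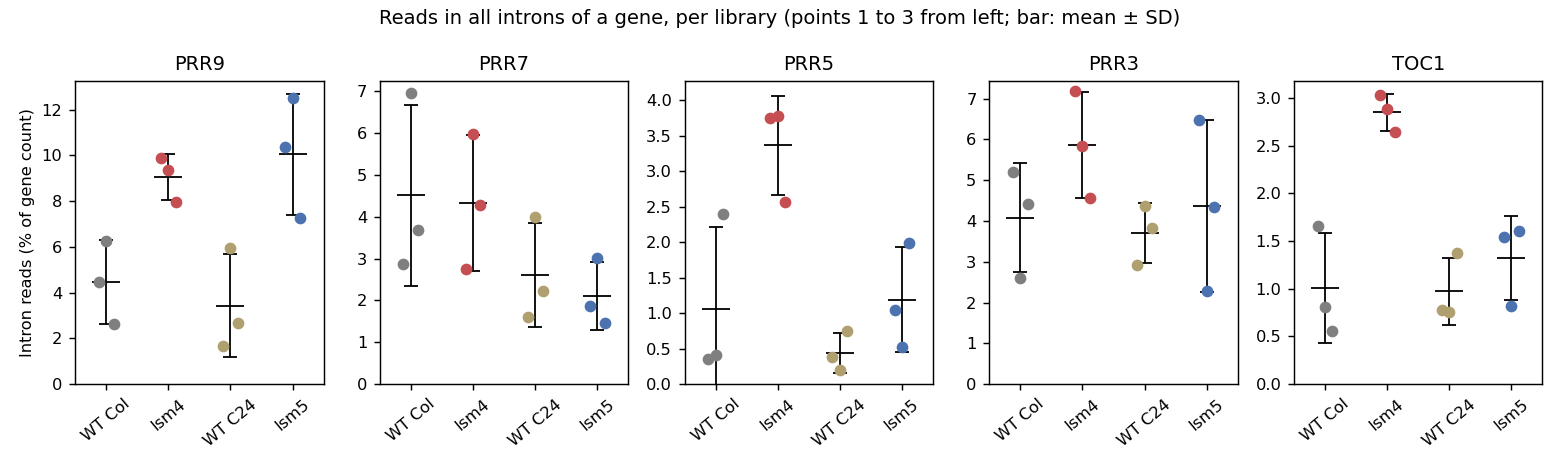
Reads in all introns of a gene as a percentage of the gene's count, per library (points 1 to 3 from left) with mean ± SD. All lsm4 libraries of TOC1 (2.64 to 3.03%) lay above WT Col (0.557 to 1.65%), while PRR7 overlapped between lsm4 and WT Col.

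The members have 3 AS bins, and the alternative letters of 2 of them are in capitals here, within their surroundings on the strand of the gene. In PRR9 the bin lies between alternative 5-prime splice sites at chr2:19233323-19233330 on the plus strand and is exonic in 2 of 5 transcripts. In PRR3 it lies between alternative 3-prime splice sites at chr5:24200656-24200662 on the minus strand and is exonic in 5 of 7 transcripts.
PRR9 E003: tcataaGTACGATGgtgatcccctaagt
PRR3 E013: aggttttggtgaagGGATTAGaataag

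PRR9 E003 held 4, 0 and 2 reads in lsm4, 0, 1 and 0 in WT Col, and none in either soil-grown group. PRR3 E013 held 15, 12 and 6 reads in lsm4 and 6, 9 and 2 in WT Col (log2 change 0.37, SE 0.65, edgeR adjusted p = 0.938), and 8, 2 and 1 in lsm5 against 5, 10 and 0 in WT C24. The third bin, PRR3 E009, is an intron of 81 bases at chr5:24199674-24199754 that 1 of 7 transcripts keeps. Its length is a multiple of 3, and the reading frame passes through it without a stop. It held 3, 2 and 2 reads in lsm4 against 1, 2 and 2, and 0, 3 and 0 in lsm5 against none in WT C24. PRR3 E013 in lsm4 was the only bin with enough reads for a test. It was not called by edgeR or DESeq2 and had no unadjusted p under 0.05, beside 0.366% of 3549 bins tested in lsm4 and 0% of 2932 in lsm5.

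The rest of the clock was followed through 39 genes in 6 lists, of which 37 could be tested; APRR4 and APRR6 held no reads. In lsm4, 3 of 37 were called, beside the 21.4% of all genes. CHE, a TCP factor that binds the CCA1 promoter and interacts with TOC1, fell from 47.3, 36.3 and 52.1 CPM in WT Col to 15.6, 8.84 and 19.5 CPM in lsm4 (log2 change -1.63, SE 0.29, edgeR adjusted p = 0.00532). JMJ30, a histone demethylase expressed in the evening with TOC1, fell from 48.1 ± 2.79 to 27.9 ± 6.95 CPM (-0.79, edgeR adjusted p = 0.0313). PIF5, a growth-promoting bHLH factor repressed by PRR proteins, rose from 96.9 ± 16.6 to 161 ± 16.7 CPM (0.74, edgeR adjusted p = 0.0275). The groups of these 3 genes did not overlap. CHE was called in all 13 alternatives run for it, while JMJ30 and PIF5 each lost the call in 5 of 6 fits that left out 1 library, and PIF5 with a replicate block as well (edgeR adjusted p = 0.0725).

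None of 10 morning MYB and LNK genes was called in lsm4, CCA1 (-0.37) and LHY (-0.08) among them, and none of 8 evening complex and F-box genes. GI, the partner of ZTL, had 43.7, 45.9 and 39.05 CPM in lsm4 and 35.1, 19.3 and 12.7 CPM in WT Col (log2 change 0.95, edgeR adjusted p = 0.0684), with WT Col 1 highest in the wild type as for PRR5. Of 7 partners and other regulators 2 fell, of 6 PRR targets in flowering and growth 1 rose, and none of 4 splicing and methylation factors with clock phenotypes or 2 other response-regulator-like genes was called. The median log2 change over the 37 genes was -0.07, against 0.02 over all genes.

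In lsm5 edgeR called none of the 37, 4 had an unadjusted p under 0.05 and DESeq2 called 1, beside 6.27% of the genes it tested. Without WT C24 2 and lsm5 3 edgeR called 18 (48.6%), beside 39.9% of all genes in the same fit. COR28, a cold-regulated repressor of PRR5 and TOC1, had 5.73, 5.13 and 4.67 CPM in lsm5 and 7.86, 10.3 and 11.02 CPM in WT C24 (log2 change -0.91, edgeR adjusted p = 0.0797), the lowest adjusted p of the lists. CHE had 63.8 ± 18.6 CPM in lsm5 and 72.9 ± 10.3 CPM in WT C24 (-0.19, edgeR adjusted p = 0.73). The median over the lists was -0.16, against 0.01 over all genes. Introns of the same clock genes were called higher in lsm4 in 9 of 41 cases, from 19 genes, beside 17.7% of all introns called higher there, and lower in none. Their median log2 change was 0.75, against 0.65 over all introns. In lsm5 edgeR called none of 15, 3 had an unadjusted p under 0.05 and DESeq2 called 1, beside 0.531% of all introns called by edgeR. The median was 0.48, against 0.24 over all introns.

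**Figure D5:**
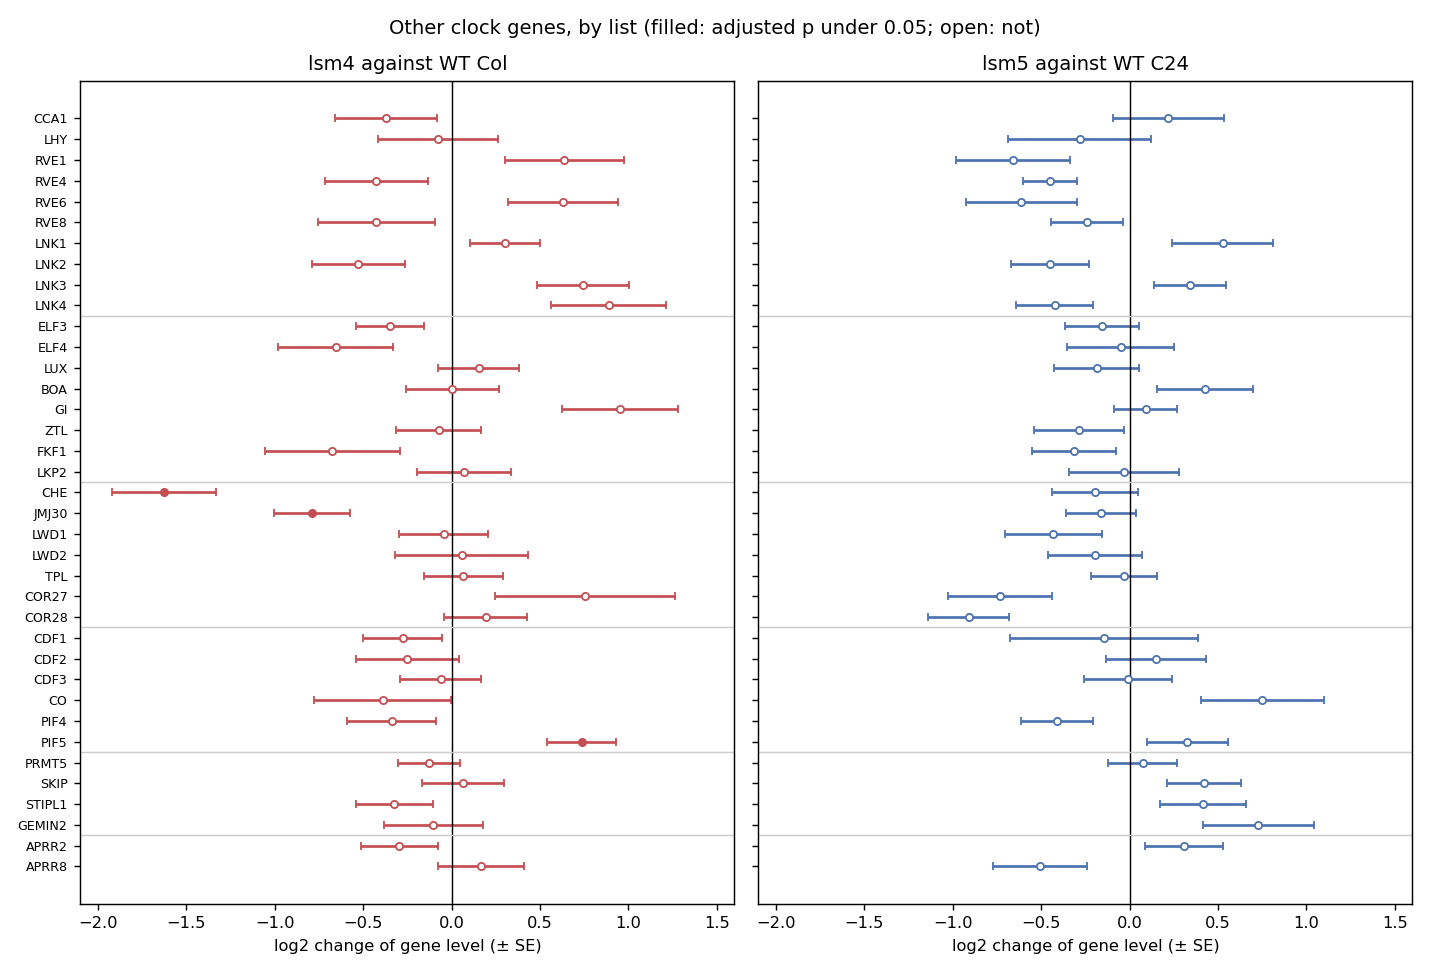
Log2 change of gene level, with standard error, of 37 clock genes of 6 lists (separated by grey lines) in lsm4 and in lsm5. Filled points passed an edgeR adjusted p of 0.05: CHE (-1.63), JMJ30 (-0.79) and PIF5 (0.74) in lsm4 and no gene in lsm5.

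The members' patterns over the 12 count columns were compared with those of 19110 genes, as Pearson r of log2 CPM with each comparison centred on its mean. The columns share their depth and the genotype contrast, so these values describe the libraries only. Among the members, PRR9 and PRR7 were most alike (r = 0.907) and PRR9 and TOC1 least (0.063). Among those nearest to PRR5 were LZF1, a B-box factor of light signalling (0.964), and PEPKR2, a protein kinase (0.954). Nearest to TOC1 were AtSec20 (0.956), AT1G53210 (0.940) and AT5G60400 (0.929). For PRR9 they were AT1G75260 (0.938), its copy AT2G46670 (0.902) and AT1G76820 (0.885), for PRR7 ATRAD51D (0.909), AT3G59910 (0.909) and AT1G76120 (0.883), and for PRR3 AT3G28640 (0.872), AT3G49550 (0.860) and EMB1025 (0.839).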

How the data were processed

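PolyA-selected RNA of plants was sequenced from 4 groups of 3 replicates, with 2 libraries each (24 samples). Raw counts for genes, introns and AS bins were deposited by the authors, and each of 12 count columns used carries a tag that both libraries of a replicate share, so n = 3. The submitters' processing notes list the TAIR10 build, edgeR 3.4.2, R 3.0.2 and TopHat2 2.0.9, and neither counter nor strand setting is given in the sources used here. Per the labels' protocols the TruSeq kit was used. The authors' deposited tables of changed features hold, per the file headers, log2 fold changes and p-values adjusted as FDR. Not used were 6 identifier lists, 1 nameless row and 12 per-sample columns without a matching label. The series' design text gives another age than the sample protocols, which were followed.

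The gene test was quasi-likelihood edgeR 4.0.16 in R 4.3.3 (TMM, filterByExpr with a minimum count of 10, Benjamini-Hochberg over all features tested, called at an adjusted p under 0.05), each mutant against its own wild type. Introns, AS bins and summed introns had the log of the gene's count as offset and a gene count of at least 10 in every library. DESeq2 1.42.0 was an alternative. CPM were scaled by TMM within a comparison. Scripts were tested on simulated data. The labels do not state separate growths, and the p-values then cover only the variation among these replicates, which may be technical. No pair agreed within sampling noise (chi-square per degree of freedom 16.0 to 148). Intervals are 95% and cover counting error only. Copies were searched with blastn 2.17.0, and transcripts were read from the reference annotation. All members and their features, clock-list genes that were called, and for each member the 3 genes most like it were to be named; GI, COR28 and other uncalled list genes were added after their values were seen. A gene among those most like PRR5 is not reported here. The members and lists were chosen with earlier results of these data known.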

Additional observations from a re-analysis of the deposited data

How the results depend on the processing

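Of 535 refits of 40 single results, 464 kept direction and side of the threshold. Another 20 lost a call, 18 gained one and 33 turned the sign, in 11 results. The cause was not tested. Most of the 40 were not called in the main fit, and for these staying uncalled counts as kept. Only the few results called there could lose a call. Leaving out 1 library at a time gave 0 to 1 called members in lsm4 (1 with all), 0 to 1 in lsm5 (0), 0 to 2 differing between the mutants (0), 0 to 1 single introns in lsm4 (0), 1 to 2 summed introns in lsm4 (2), and 1 to 6 (3) and 0 to 4 (0) clock-list genes in lsm4 and lsm5. Without WT Col 1 and lsm4 2 the counts in lsm4 were 2 members, 1 summed intron set and 12 clock-list genes (32.4%, beside 31.4% of all genes); without WT C24 2 and lsm5 3 they were 2 members and 18 clock-list genes in lsm5 (48.6%, beside 39.9%), and without all 4 libraries 2 members differed between the mutants. With 1 library left out, 12.8 to 21.5% of all genes were called in lsm4 and 0.114 to 10.2% in lsm5. The share of all genes called in refits of the difference between the mutants was not counted. DESeq2 called 1 member in lsm5, and 6 and 1 clock-list genes in lsm4 and lsm5, beside 24.5% and 6.27% of all genes. In 1 fit of all 4 groups these counts were 6 and 1, beside 23.6% and 3.77%. Without the gene count as offset 3 introns were called in lsm4, and centred on the median change 0 summed introns. Without that offset a change of the whole gene enters the intron test. The share of all introns or summed introns called was not counted in any refit. No AS bin in either mutant, no intron or summed introns in lsm5, and no intron or summed introns differing between the mutants were called in any alternative run. Replicate numbers did not pair the samples (correlations of deviations -0.393, -0.165 and 0.49 in lsm4 and -0.344, 0.614 and 0.566 in lsm5). With the replicate block PRR5 in lsm4 was 1.03 (edgeR adjusted p = 0.0364), and 1 clock-list gene was called in lsm5 (2.7%, beside 6.77% of all genes). A replicate block by the numeral in the sample descriptions gave 2 members, 3 introns and 15 clock-list genes in lsm4 (40.5%, beside 35.7%). In that block WT Col 1 and lsm4 2 have no partner, so its changes rest on the same libraries as the fit without them. Signs turned for PRR3 in lsm4 (log2 -0.02; -0.17 to 0.25 without 1 library, 0.24 without WT Col 1 and lsm4 2, 5.66e-04 with no filter, 0.0145 with the replicate block, 0.25 with the block by numeral), TOC1 in lsm4 (-0.0076 to 0.33 without 1 library), PRR3 in lsm5 (-0.25 to 0.19; 0.18 without WT C24 2 and lsm5 3) and the PRR3 difference between the mutants (-0.19 to 0.31). They also turned for PRR7 I001 in lsm4 (-0.49 to 0.42 without 1 library, -0.76 without the libraries apart, -0.51 with the block by numeral, -0.55 centred), PRR3 I011 (-0.29 to 0.92, -0.22 centred) and the summed introns of PRR7 in lsm4 (-0.47 to 0.40), PRR3 in lsm4 (-0.18 centred), PRR7 in lsm5 (-0.73 to 0.13, 0.33 without the libraries apart), PRR3 in lsm5 (-0.19 to 0.54, -0.15 centred) and the PRR5 difference between the mutants (-0.26 to 1.62). With a mean count of at least 30, PRR7 I004 in lsm4 was the only intron of the members left. WT Col 1, with 9402839 counts, sets the lowest depth, and introns with few reads were not tested in the main fit.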
